A study of Mus musculus with 4 samples.

Results

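The 9 genes described here encode the inflammatory and tissue homing chemokine receptors *Ccr2*, *Ccr4*, *Ccr6*, *Ccr8*, *Ccr9*, *Ccr10*, *Cxcr3*, *Cxcr6* and *Cx3cr1*. They were chosen by name as a family, with no measured value in the rule but with earlier results of these data known. They are 9 of the 47729 genes in the count table. Enough reads for a test were found for 8 of the 9 and for 12536 genes in all, and *Ccr10* was the member below that level.

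The study asked what the loss of transferrin receptor 1 (TfR1), the main cellular importer of transferrin-bound iron, does to the transcriptome of regulatory T (Treg) cells. RNA was sequenced from 4 samples of Treg cells of C57BL/6 mice, which the labels describe as splenic and the study's legend as taken from spleen and lymph nodes. All mice were female. The 2 WT libraries have the genotype *Tfrc* +/+ *Foxp3* YFP-Cre/+ on their labels, and the 2 libraries labelled TfR1 cko have *Tfrc* fl/fl with the same *Foxp3* YFP-Cre/+ alleles. The latter are called cko-labelled as a group, and TfR1-deficient 1 and TfR1-deficient 2 singly. All 4 thus carry the same *Foxp3*-driven YFP-Cre and differ in the floxed *Tfrc* alleles. *Foxp3* lies on the X chromosome, so a heterozygous female also holds Treg cells that use the other, Cre-free allele, and the sort for CD25 and YFP kept the cells that express Cre. By a general statement of ages that covers heterozygous females, the mice were 6 to 8 weeks old, with no age tied to a single library. Whether a library pooled several animals is not given in the sources used here, so p-values measure only the spread between these libraries.

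Chemokine receptors are G protein-coupled receptors that steer leukocytes along gradients of chemokines, and the set a T cell displays decides which tissues it can enter. Naive and central Treg cells carry receptors for lymphoid organs, whereas activated Treg cells gain receptors for skin, gut, lung and inflamed sites. CCR4, CCR8 and CCR10 are linked to skin and other barrier surfaces, CCR6 and CCR9 to the intestine, and CXCR3, CXCR6 and CCR2 to type 1 and other inflamed tissue.

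In the cko-labelled libraries, 5 of the 8 tested receptors were called lower than in WT (*Ccr2*, *Ccr4*, *Ccr6*, *Ccr8* and *Cxcr3*), with log2 fold changes between -1.85 and -0.85, and 0 were called higher. A gene was called where the unadjusted p-value of edgeR's quasi-likelihood test was under 0.05 and the absolute log2 fold change at least 0.5, the limits the study used. Under this rule 311 of the 12536 tested genes were called lower, or 2.48% of them, and 200 were called higher, or 1.6%. After Benjamini-Hochberg adjustment 0 of the tested genes (0%) and 0 of the receptors were called, 655 genes had an unadjusted p-value under 0.05, and the smallest adjusted p-value was 0.266. DESeq2 called 33 genes lower after adjustment (0.263%), of which *Ccr6* and *Ccr8* were 2. For 1 gene in 2 libraries against 2, p = 0.333 is the smallest value that an exact permutation test allows.

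The cko-labelled libraries were both lower than both WT libraries for 6 of the 8 tested receptors, and above both for 1, *Ccr9*. Among all tested genes 18.9% lay below both and 16% above both. The median log2 fold change of the 8 receptors was -0.90, beside 0.01 for all tested genes. With libraries instead scaled to the 7 Treg cell markers, a choice made after seeing the data, the median of all genes was 0.38. That of the receptors moved to -0.52, with 3 receptors called lower and 1 higher. In that fit 62 of the 12536 tested genes were called lower and 1586 higher. The summed level of the receptors, with *Ccr10* included, was 352 and 268 CPM in WT 1 and WT 2. In TfR1-deficient 1 and 2 it was 144 and 195 CPM. CPM are counts scaled for the size of each library, here after edgeR's TMM correction. In bulk RNA of a sorted population, fewer cells that carry a receptor and less receptor RNA per cell cannot be told apart.

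**Figure D1:**
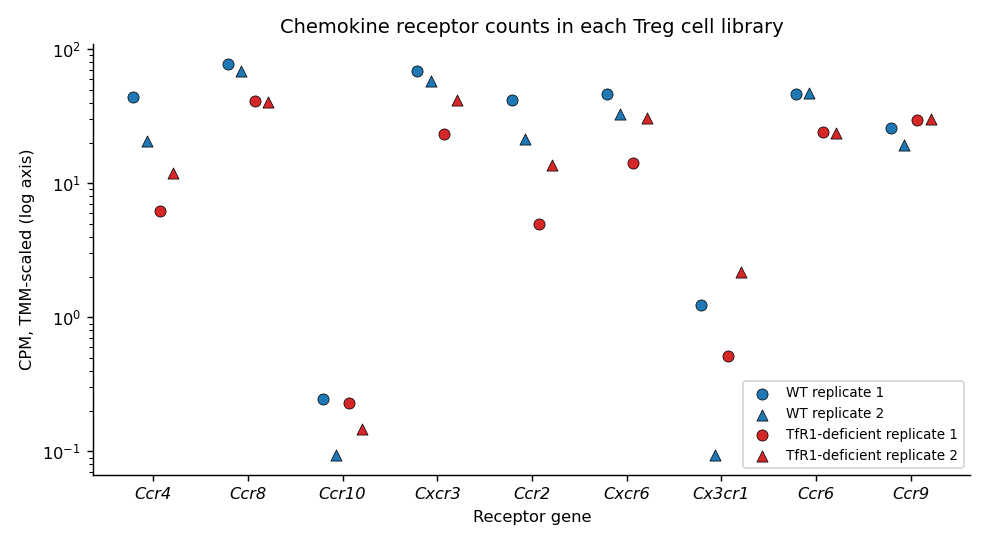
Level of each receptor in the 4 libraries, in TMM-scaled CPM on a log axis, with 1 point for each library. The TfR1-deficient points lie below both WT points for 6 receptors and above both for *Ccr9*, and *Ccr10* stays under 0.3 CPM in every library.

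The libraries were checked before the receptors were compared. Totals ranged from 10841939 to 17278448 counts, and 1 count was worth 0.0576 to 0.0937 CPM. *Tfrc*, the targeted gene, stood at 50.8 and 54.1 CPM in WT and at 56.1 and 48.3 CPM in the cko-labelled libraries (log2 fold change -0.01, adjusted p = 0.999), so its gene total gave no check of the labels, and every direction below rests on the labels. A total over the gene does not show whether floxed exons were removed. *Foxp3*, which defines Treg cells, was present in all 4 libraries at 194, 130, 122 and 114 CPM in the order WT 1, WT 2, TfR1-deficient 1 and TfR1-deficient 2, the order used from here on. Of the 7 Treg cell markers, 1 was called lower (*Ctla4*, an inhibitory receptor, log2 fold change -0.81) and 0 higher, with a median of -0.43. The shares called over all tested genes were 2.48% and 1.6%. Of the 7 markers, 6 had a log2 fold change below 0. For 5 of them both cko-labelled libraries lay below both WT libraries, beside 18.9% of all tested genes.

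Macrophage transcripts separated the libraries in a way that did not follow genotype. The 20 macrophage markers summed to 1239, 168, 147 and 3613 CPM, and *Csf1r*, the receptor for macrophage colony-stimulating factor, stood at 124, 1.97, 4.96 and 371 CPM. WT 1 and TfR1-deficient 2 were thus high, and WT 2 and TfR1-deficient 1 low. Of the 18 markers tested, 0 were called in either direction, and 0 had a log2 fold change below 0 (median 1.65, range 0.24 to 2.13). Replicates of most markers lay far apart, so the lack of calls says little. Monocyte and dendritic cell markers (10 genes) followed with 34.2, 10.5, 9.22 and 90.0 CPM, among them *Flt3*, *Siglech* and *Clec9a* with 0 or near 0 in each library. Erythroid markers summed to 26.8, 156, 60.0 and 446 CPM. The 6 B cell markers summed to 25.5 to 42.5 CPM, the 2 CD8 T cell markers to 11.1 to 12.6 CPM, the 5 NK and innate lymphoid markers to 8.30 to 17.3 CPM, and the single gamma delta T cell marker found in the table stayed under 0.33 CPM. Since macrophages can express *Ccr2* and *Cx3cr1*, receptor values are also given within the pair of libraries low in macrophage transcripts and within the high pair.

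Set per kilobase of exon, so that genes can be compared with each other, *Ccr8* had the highest level of the family in WT (63.4 CPM per kilobase, mean of 2 libraries). *Cxcr3* (36.5), *Ccr6* (24.7), *Cxcr6* (20.9), *Ccr4* (11.3), *Ccr9* (7.05) and *Ccr2* (4.95) followed, and *Cx3cr1* (0.177) and *Ccr10* (0.0983) were lowest. Of the 8 neighbouring pairs in this order, 5 had WT libraries that did not overlap. The pairs *Ccr4* and *Ccr9*, *Ccr9* and *Ccr2*, and *Cx3cr1* and *Ccr10* overlapped, and *Ccr6* and *Cxcr6* met at 24.4 CPM per kilobase in WT 1. In the cko-labelled libraries the order was the same but for *Ccr9*, which at 9.32 CPM per kilobase stood above *Ccr4* at 3.13. The order of the WT means and the 5 separate pairs were the same with the longest transcript in place of all exons.

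The family is spread over 4 chromosomes, with 6 of its 9 genes on chromosome 9. On GRCm38.p6 these are *Ccr4* (chr9:114490316-114505476, minus strand), *Cx3cr1* (chr9:120048683-120068296, minus), *Ccr8* (chr9:120092133-120094906, plus), *Ccr9* (chr9:123767211-123783457, plus), *Cxcr6* (chr9:123806477-123811754, plus) and *Ccr2* (chr9:124101918-124109140, plus). *Ccr6* is on chromosome 17 (chr17:8236041-8258519, plus), *Ccr10* on chromosome 11 (chr11:101172998-101175443, minus) and *Cxcr3* on the X chromosome (chrX:101731535-101734147, minus). *Cxcr6* lies inside *Fyco1* on the opposite strand, with 0 exon bases in common. *Ccr9* shares 269 of its 3217 exon bases with *Gm17200* on the same strand, and 22 and 56 with *Slc6a20a* and *Gm17021* on the opposite strand. Whether the counting used strand is not given in the sources used here, so reads in those bases are uncertain.

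The promoter sequences of the 5 called receptors and of *Ccr9* are shown because the former were lower together while *Ccr9* was not. RefSeq windows from 250 bases before to 50 bases after a transcript start were found for 8 of the 9 receptors, in 9 entries since *Ccr6* has 2 starts; *Ccr10* has none. These starts are not always the outer end of the gene: that of *Ccr4* lies 8932 bases inside the gene and that of *Ccr2* 265 bases inside, while those of *Ccr8*, *Cxcr3* and *Ccr9* are at the gene's own start and the upstream one of *Ccr6* is 2 bases from it. The windows below are given 5′ to 3′ on the strand of the gene, build GRCm38.p6, for *Ccr8* (chr9:120091883-120092182, plus strand), *Ccr4* (chr9:114496495-114496794, minus), *Ccr6* (the upstream start, chr17:8235793-8236092, plus), *Cxcr3* (chrX:101734098-101734397, minus), *Ccr2* (chr9:124101933-124102232, plus) and *Ccr9* (chr9:123766961-123767260, plus). Capitals mark matches on either strand to 7 searched motifs, which are spelled out after the sequences.
Ccr8: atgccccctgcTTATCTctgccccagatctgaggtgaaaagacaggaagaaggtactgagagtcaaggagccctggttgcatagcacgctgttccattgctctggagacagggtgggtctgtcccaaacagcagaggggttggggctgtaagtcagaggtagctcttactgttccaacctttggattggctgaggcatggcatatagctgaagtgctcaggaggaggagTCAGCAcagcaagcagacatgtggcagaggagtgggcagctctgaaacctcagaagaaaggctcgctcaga
Ccr4: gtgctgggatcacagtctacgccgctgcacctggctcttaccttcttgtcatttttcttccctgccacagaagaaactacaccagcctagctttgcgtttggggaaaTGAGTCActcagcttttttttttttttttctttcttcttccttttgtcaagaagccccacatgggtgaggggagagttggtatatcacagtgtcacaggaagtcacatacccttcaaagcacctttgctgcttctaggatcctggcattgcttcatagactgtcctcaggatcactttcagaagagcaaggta
Ccr6: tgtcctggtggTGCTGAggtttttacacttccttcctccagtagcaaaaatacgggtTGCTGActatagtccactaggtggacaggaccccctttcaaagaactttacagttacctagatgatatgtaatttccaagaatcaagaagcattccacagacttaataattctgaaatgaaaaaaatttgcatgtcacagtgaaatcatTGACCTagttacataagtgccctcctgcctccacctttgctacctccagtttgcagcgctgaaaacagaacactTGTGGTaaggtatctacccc
Cxcr3: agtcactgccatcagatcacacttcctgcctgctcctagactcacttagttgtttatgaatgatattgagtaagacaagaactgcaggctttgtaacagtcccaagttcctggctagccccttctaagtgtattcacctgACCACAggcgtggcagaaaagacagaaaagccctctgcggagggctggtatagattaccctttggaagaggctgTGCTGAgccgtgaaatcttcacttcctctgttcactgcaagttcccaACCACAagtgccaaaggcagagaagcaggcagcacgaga
Ccr2: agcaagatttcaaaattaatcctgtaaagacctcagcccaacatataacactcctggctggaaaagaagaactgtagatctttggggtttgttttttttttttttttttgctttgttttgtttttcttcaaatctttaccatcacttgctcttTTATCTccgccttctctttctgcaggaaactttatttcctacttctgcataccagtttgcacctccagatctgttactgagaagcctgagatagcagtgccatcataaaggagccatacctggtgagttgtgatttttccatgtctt
Ccr9: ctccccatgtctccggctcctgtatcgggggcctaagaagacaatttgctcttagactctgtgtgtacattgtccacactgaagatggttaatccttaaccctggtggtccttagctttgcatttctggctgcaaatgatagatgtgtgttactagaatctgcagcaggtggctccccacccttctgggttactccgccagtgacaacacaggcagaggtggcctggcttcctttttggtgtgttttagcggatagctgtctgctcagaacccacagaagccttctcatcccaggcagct

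The motifs searched on both strands were the hypoxia response element core ACGTG, the MAF half-site TGCTGA, the nuclear receptor half-site AGGTCA, the T-box half-site AGGTGT, the AP-1 site TGANTCA, the RUNX site TGTGGT and the GATA site AGATAA. Each was counted on its own, and some can overlap, as TGCTGA and TGANTCA do in their shared TGA. Of the 9 receptor windows, 3 held the MAF half-site (19.5% of all 32851 promoters of the same length did), 4 the RUNX site (16.8%), 3 the GATA site (11.2%), 1 each the hypoxia core (19.6%), the nuclear receptor half-site (16.3%) and the AP-1 site (7.81%), and 0 the T-box half-site (13.7%). The upstream *Ccr6* window held 2 MAF half-sites, 1 nuclear receptor half-site and 1 RUNX site, and the *Cxcr3* window 1 MAF half-site and 2 RUNX sites. *Ccr8* had 1 MAF half-site and 1 GATA site, *Ccr4* had 1 AP-1 site, *Ccr2* had 1 GATA site, and the *Ccr9* window held 0 of the 7 motifs. The only hypoxia core match was in the other *Ccr6* window, which is not shown. These matches describe letters in a short window and say nothing of binding.

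*Ccr8* encodes the CCL1 receptor that marks activated Treg cells of skin and other tissues. It measured 78.3 and 68.3 CPM in WT 1 and WT 2 and 41.0 and 40.2 CPM in the cko-labelled libraries. The groups did not overlap, and the gap between them was wider than the range within either. The WT mean of 73.3 ± 7.02 CPM (SD, n = 2) was 1.81 times the TfR1-deficient mean of 40.6 ± 0.529 (n = 2), a log2 fold change of -0.85 (SE 0.15, unadjusted p = 0.00218 and adjusted p = 0.911 by edgeR). It was called with any 1 library left out, with log2 fold changes from -0.95 to -0.74, and with DESeq2 its adjusted p was 0.0325. Scaled to the Treg cell markers, *Ccr8* was at -0.48 and no longer called, with the median of all genes at 0.38. In the main fit 6 of those 7 markers themselves had log2 fold changes below 0. Its value was -0.74 within the libraries low in macrophage transcripts and -0.96 within the high ones.

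*Ccr4* encodes the receptor for CCL17 and CCL22, used for entry into skin. Its levels were 44.3 and 20.8 CPM in WT and 6.22 and 11.9 CPM in the cko-labelled libraries. Both WT libraries were higher than both of the others, but they differed from each other by more than did WT 2 and TfR1-deficient 2. The means were 32.5 ± 16.6 CPM (SD, n = 2) and 9.06 ± 4.01 (n = 2), which is 3.59 times higher in WT, or -1.85 as a log2 fold change (SE 0.50, unadjusted p = 0.0134, adjusted p = 0.911 by edgeR). Without WT 1 the log2 fold change was -1.19 and the call was lost (unadjusted p = 0.0744). Within the low and the high macrophage pairs it was -1.72 and -1.88.

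*Ccr10*, the receptor for CCL27 and CCL28, was close to absent at this depth. It had 3, 1, 4 and 2 counts in the 4 libraries, or 0.0937 to 0.246 CPM. No difference could be detected at such counts, and no fold is given.

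*Ccr6* encodes the CCL20 receptor, which is shared by Treg cells of the gut and by Th17 cells. WT 1 and WT 2 stood at 46.1 and 47.0 CPM, and the cko-labelled libraries at 24.1 and 23.9 CPM. Replicates of either genotype were nearly equal. The mean went from 46.5 ± 0.620 CPM (SD, n = 2) in WT to 24.0 ± 0.194 (n = 2), 1.94 times lower, with a log2 fold change of -0.95 (SE 0.17, unadjusted p = 0.00200, adjusted p = 0.911 by edgeR). Leaving out any 1 library gave -0.96 to -0.94 and kept the call, and DESeq2 gave an adjusted p of 0.0165. With scaling to the Treg cell markers the value was -0.58, still called. The macrophage-low and macrophage-high pairs gave -0.96 and -0.94.

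*Ccr9*, the receptor for CCL25 and the classical small intestine homing receptor, was the only member with both cko-labelled libraries above both WT libraries. *Cx3cr1* also had a positive log2 fold change, but its groups overlapped. *Ccr9* stood at 25.9 and 19.4 CPM in WT and at 29.7 and 30.3 CPM in the cko-labelled libraries. The latter lay above both WT libraries, by less over WT 1 than the gap between the WT libraries. The means of 22.7 ± 4.63 and 30.0 ± 0.437 CPM (SD, n = 2 each) differed by 0.40 on the log2 scale (SE 0.23), which was not called (unadjusted p = 0.135, adjusted p = 0.928 by edgeR). With any 1 library left out the value ran from 0.21 to 0.64, and it was called in 0 of the 4 fits. With scaling to the Treg cell markers, where the median of all genes was 0.38, *Ccr9* reached 0.78 and was called higher (unadjusted p = 0.0191 by edgeR). So were 1586 of the 12536 tested genes in that fit.

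*Cxcr3* encodes the receptor for CXCL9, CXCL10 and CXCL11, carried by Treg cells that control type 1 responses. Its levels were 68.5 and 57.7 CPM in WT and 23.3 and 41.6 CPM in the cko-labelled libraries. All of the latter were lower, with a wide gap between TfR1-deficient 1 and 2. The means were 63.1 ± 7.62 and 32.4 ± 13.0 CPM (SD, n = 2 each), 1.95 times higher in WT, or -0.96 as a log2 fold change (SE 0.31, unadjusted p = 0.0251, adjusted p = 0.911 by edgeR). The call was lost without WT 1 (-0.82, unadjusted p = 0.109) and without TfR1-deficient 1 (-0.60, unadjusted p = 0.0617), and the value was -1.44 without TfR1-deficient 2. It was also lost with scaling to the Treg cell markers (-0.56, unadjusted p = 0.140). The macrophage-low pair gave -1.30 and the high pair -0.72.

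*Cxcr6*, the receptor for CXCL16 that is found on tissue-resident and activated T cells, was not called. It measured 46.2 and 32.8 CPM in WT and 14.1 and 30.7 CPM in the cko-labelled libraries. The groups did not overlap, yet WT 2 and TfR1-deficient 2 were close to each other. The means of 39.5 ± 9.45 and 22.4 ± 11.7 CPM (SD, n = 2 each) gave a difference of -0.82 on the log2 scale (SE 0.42, unadjusted p = 0.105, adjusted p = 0.911 by edgeR). Without TfR1-deficient 2 it was -1.49 and was called (unadjusted p = 0.0041), and without TfR1-deficient 1 it was -0.37 (unadjusted p = 0.323). The macrophage-low pair gave -1.21 and the high pair -0.59.

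*Ccr2* encodes the CCL2 receptor of inflammatory monocytes, which activated T cells also carry. Its levels were 41.7 and 21.6 CPM in WT and 5.01 and 13.7 CPM in the cko-labelled libraries. WT 1 was the highest and TfR1-deficient 1 the lowest, with no overlap of the groups. The means of 31.7 ± 14.3 and 9.37 ± 6.16 CPM (SD, n = 2 each) differed 3.38 times, or by -1.76 on the log2 scale (SE 0.58, unadjusted p = 0.0281, adjusted p = 0.911 by edgeR). The call was lost without WT 1 (-1.19, unadjusted p = 0.145) and without TfR1-deficient 1 (-1.21, unadjusted p = 0.0557), and without TfR1-deficient 2 the value was -2.66. Within each genotype, *Ccr2* was higher in the macrophage-high library (41.7 against 21.6 CPM in WT, 13.7 against 5.01 CPM in the cko-labelled ones). TfR1-deficient 2, with 3613 CPM of macrophage markers, had less *Ccr2* than WT 2 with 168 CPM, but these libraries also differ in genotype. The part of macrophages in these values was not tested. Within the low and the high pair the *Ccr2* values were -2.07 and -1.59. Of its 6439 windows of 50 exon bases, 120 (1.86%) also occur in other genes, and reads in them are uncertain.

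*Cx3cr1*, the fractalkine receptor of monocytes, macrophages and cytotoxic T cells, was at the edge of detection. It had 15, 1, 9 and 30 counts, or 1.23, 0.0937, 0.519 and 2.19 CPM. The groups overlapped, and the highest values were in WT 1 and TfR1-deficient 2, the libraries with the most macrophage transcripts; the part of those cells in it was not tested. The log2 fold change was 0.98 (SE 1.23, unadjusted p = 0.458, adjusted p = 0.955 by edgeR), and over the fits with 1 library left out it ran from -0.37 without TfR1-deficient 2 to 3.73 without WT 1.

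**Figure D2:**
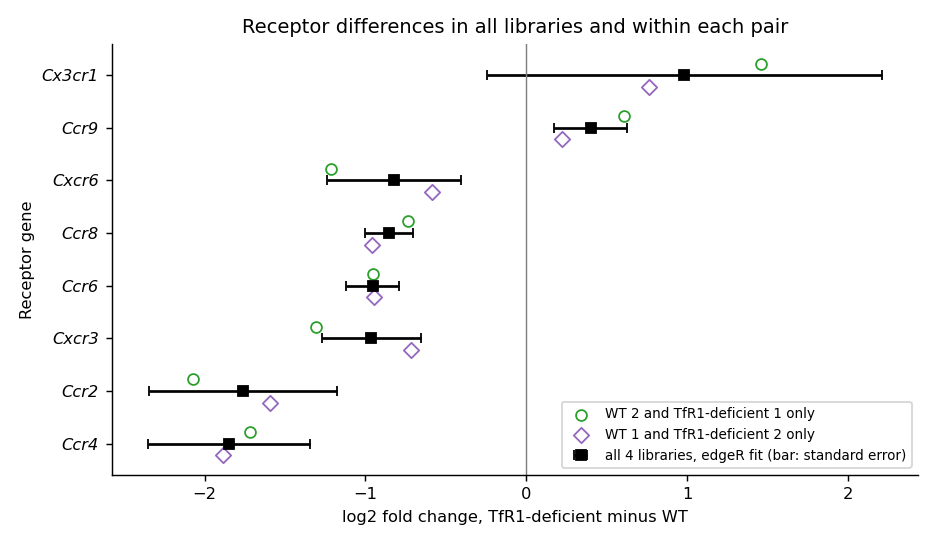
Log2 fold change (TfR1-deficient minus WT) of the 8 tested receptors, with bars of 1 SE from edgeR and the values within the 2 pairs of libraries with low and with high macrophage transcripts. The 5 called receptors lie between -1.85 and -0.85, and the bar of *Cx3cr1* is the widest (SE 1.23).

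Within the macrophage-low pair of libraries (WT 2 and TfR1-deficient 1) the median of the 8 receptors was -1.08, and within the high pair (WT 1 and TfR1-deficient 2) it was -0.83. In each pair 6 of the 8 values were negative, beside 48.8% and 50.5% of all tested genes. Both cko-labelled libraries were below both WT libraries for these 6 receptors, so their negative sign in each pair restates that order. The pair values set 1 library against 1 and carry no test.

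**Figure D3:**
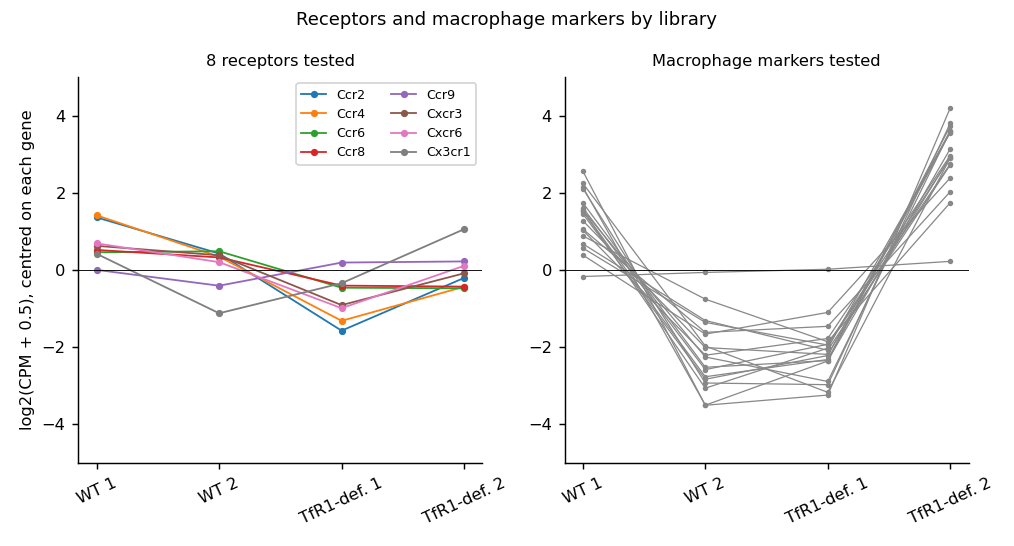
Level of the 8 tested receptors (left) and the 18 tested macrophage markers (right) in the 4 libraries, as log2 of CPM plus 0.5 centred on each gene's mean, with a line joining the points of a gene. Nearly all macrophage lines are high in WT 1 and TfR1-deficient 2, a shape that *Cx3cr1* shares, while *Ccr6* and *Ccr8* step down from both WT libraries to both cko-labelled ones. Within each genotype, *Ccr2*, *Ccr4*, *Ccr9*, *Cxcr3* and *Cxcr6* are also higher in the macrophage-high library, *Ccr9* only slightly in the cko-labelled ones.

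Part of the family is a run of receptor genes on chromosome 9 from *Ccr9* to *Ccr2*, 341.9 kb long, with 12 RefSeq genes, of which 9 were in the table and 6 were tested. Of these 6, *Ccr2* was the 1 called lower and 0 were called higher. *Fyco1*, an autophagosome transport gene whose introns hold *Cxcr6*, had 66.4, 70.9, 66.9 and 54.2 CPM, so the groups overlapped (log2 fold change -0.18, SE 0.17, unadjusted p = 0.327). *Ccr3*, an eosinophil receptor named after its values were seen, had 22.1, 0.937, 0.864 and 69.4 CPM and so was high in the macrophage-high libraries (log2 fold change 1.60, SE 1.95, unadjusted p = 0.448). *Ccr1* had 8, 16, 1 and 3 counts and was not tested.

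**Figure D4:**
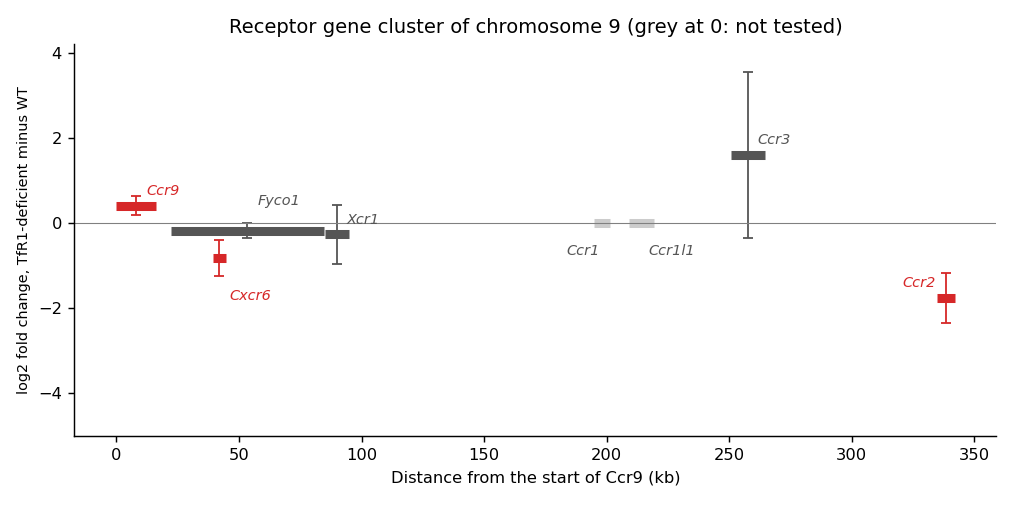
Log2 fold change (TfR1-deficient minus WT) with bars of 1 SE along the *Ccr9* to *Ccr2* stretch of chromosome 9, against distance from the start of *Ccr9* in kilobases; red marks members of the family, dark grey other tested genes, and light grey at 0 genes that were not tested. *Ccr9* at 0.40 and *Ccr2* at -1.76 lie at opposite ends.

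Ligands of these receptors are made mainly by stromal, epithelial and myeloid cells, and few were seen in the sorted cells. Of 16 listed ligands 15 were in the table and 6 were tested, with a median of -0.44. Of these 6, 1 was called lower and 0 higher, beside 2.48% and 1.6% of all tested genes. The called ligand was *Ccl20*, the CCR6 ligand that Th17 cells also make, at 3.52, 2.72, 0.346 and 0.949 CPM. Its 2 values in the cko-labelled libraries were below both WT values (log2 fold change -2.28, SE 0.66, unadjusted p = 0.0175, adjusted p = 0.911 by edgeR). The most highly counted ligands were *Ccl25*, the CCR9 ligand, at 12.9, 7.97, 7.84 and 6.86 CPM (log2 fold change -0.51, unadjusted p = 0.210), and *Cxcl16*, the CXCR6 ligand, at 2.7, 2.72, 2.25 and 3.50 CPM (0.08, unadjusted p = 0.859). Of the CCR4 ligands, *Ccl17* had 0 counts in all 4 libraries and *Ccl22* had 2, 1, 1 and 4 counts, both looked up after values were seen. The call of *Ccl20* was lost without WT 1 (-2.06) and without TfR1-deficient 1 (-1.71).

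The other chemokine receptors numbered 16, of which 7 were tested. Beside 2.48% of all tested genes, 2 of these 7 were called lower, with 0 higher and a median of -0.27. *Ccr7*, which brings T cells into lymph nodes, was the most abundant at 838, 918, 781 and 880 CPM, and its groups overlapped (log2 fold change -0.08, SE 0.14, unadjusted p = 0.598). *Cxcr5*, the B cell follicle receptor of follicular T cells, had 55.7, 58.1, 24.9 and 29.0 CPM, with the cko-labelled libraries well below both WT libraries. Its log2 fold change was -1.08 (SE 0.17, unadjusted p = 0.00123, adjusted p = 0.911 by edgeR).

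Signalling downstream of the receptors runs through Gi proteins, phosphoinositide 3-kinase gamma and the DOCK2 and RAC2 module, and 18 of these 19 listed genes were tested. Of the 18, with a median of -0.02, 0 were called lower and 1 higher, beside 2.48% and 1.6% of all tested genes. *Gnb2*, a G protein beta subunit, was the call at 38.1, 32.9, 57.3 and 60.6 CPM (log2 fold change 0.73, SE 0.16, unadjusted p = 0.00591, adjusted p = 0.911 by edgeR). *Rac2*, a leukocyte GTPase of the actin response, had 2537, 2603, 2351 and 2389 CPM (-0.12, unadjusted p = 0.401), and *Coro1a*, an actin regulator, had 2616, 1990, 1632 and 2062 CPM (-0.32, unadjusted p = 0.180).

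Desensitization genes, which end receptor signals, had 13 tested of 14, with a median of -0.08. Of these 13, 4 were called lower and 0 higher, beside 2.48% and 1.6% of all tested genes. All 4 were RGS proteins, which speed up GTP hydrolysis by G alpha subunits. *Rgs1* had 598, 424, 210 and 355 CPM (log2 fold change -0.85, SE 0.31, unadjusted p = 0.0385), and *Rgs16* had 68.5, 75.6, 43.6 and 44.0 CPM (-0.72, SE 0.14, unadjusted p = 0.00382). For both, the cko-labelled libraries lay below WT. *Rgs14* (-0.54, unadjusted p = 0.0303) and *Rgs3* (-0.53, unadjusted p = 0.0201) were the other calls, and each of the 4 had an adjusted p of 0.911. With 1 library left out in turn, *Rgs16* was called in 4 of 4 fits, *Rgs1* in 2 (lost without WT 1 and without TfR1-deficient 1), *Rgs14* in 2 (lost without WT 2 and without TfR1-deficient 2) and *Rgs3* in 1 (without TfR1-deficient 1). *Arrb2*, the beta-arrestin that uncouples these receptors, had 251, 223, 273 and 286 CPM and was not called (0.24, unadjusted p = 0.154).

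Homing molecules outside the chemokine receptors had 14 tested of 16, with a median of -0.39. Among the 14, 3 were called lower and 0 higher, where all tested genes gave 2.48% and 1.6%. *Itgae*, the CD103 integrin chain that holds T cells in epithelia, had 59.1, 47.1, 18.3 and 10.6 CPM (log2 fold change -1.87, SE 0.32, unadjusted p = 0.00189). *Gpr15*, a large intestine homing receptor, had 11.0, 15.8, 4.73 and 4.38 CPM (-1.55, SE 0.33, unadjusted p = 0.00480), and *Cd44*, the hyaluronan receptor of activated T cells, had 132, 117, 65.4 and 99.2 CPM (-0.60, SE 0.23, unadjusted p = 0.0491). All 3 were lower in each cko-labelled library than in either WT library, each at an adjusted p of 0.911. *Itgae* and *Gpr15* were called with any 1 library left out, and *Cd44* only without TfR1-deficient 2. *S1pr1*, the receptor for exit from lymphoid organs, had 866, 949, 854 and 1159 CPM, so its groups overlapped (0.15, unadjusted p = 0.469).

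The 16 transcription factors linked to these receptor genes were all tested, with a median of -0.24. Of them 2 were called lower and 0 higher, the shares over all tested genes being 2.48% and 1.6%. *Irf4*, a factor of effector Treg cells, had 61.4, 29.9, 21.3 and 25.2 CPM (log2 fold change -0.98, SE 0.37, unadjusted p = 0.0453, adjusted p = 0.911 by edgeR), with WT 2 close to TfR1-deficient 2. Its call was lost without WT 1 (-0.35) and without TfR1-deficient 1 (-0.86). The most highly counted factors, *Stat3* (0.05, unadjusted p = 0.766) and *Gata3* (-0.07, unadjusted p = 0.776), had overlapping groups.

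**Figure D5:**
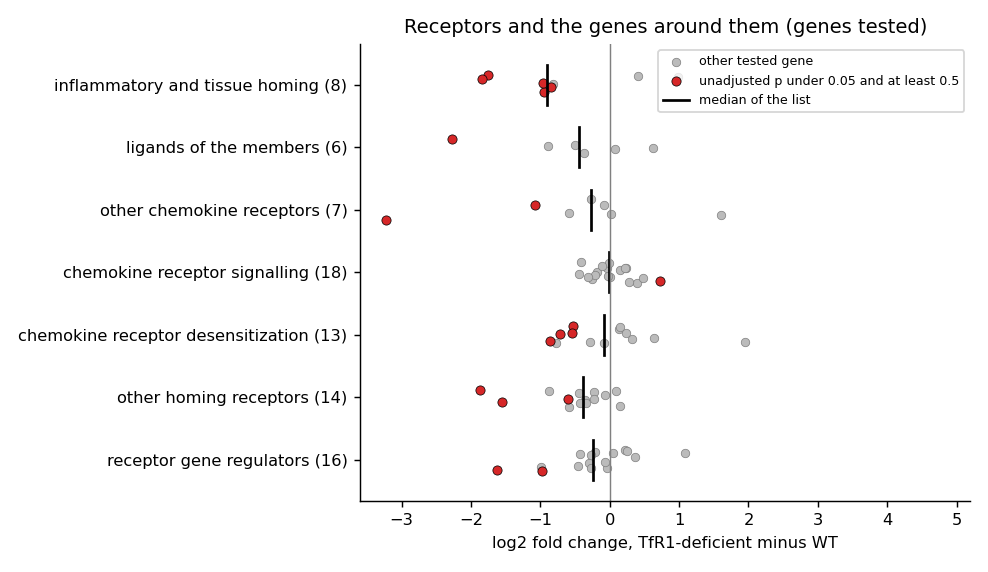
Log2 fold change (TfR1-deficient minus WT) of each tested gene in the receptor family and the 6 gene lists around it, with the number tested in brackets; red points are called genes and black bars list medians. Of the groups shown, the receptor family has the lowest median (-0.90), and signalling genes one near 0 (-0.02).

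For each tested receptor, the gene with the most similar pattern was found as the smallest Euclidean distance between centred log2 CPM over the 4 libraries. These were *Ifng* for *Ccr2* (distance 0.135), *S100a11* for *Ccr4* (0.302), *Iqce* for *Ccr6* (0.103), *Gm8206* for *Ccr8* (0.0447), *Tradd* for *Ccr9* (0.0490), *Gm15890* for *Cxcr3* (0.0818), *Bag3* for *Cxcr6* (0.114) and *Rnd3* for *Cx3cr1* (0.242). With 4 libraries a close pattern is easily found among 12536 genes. Some of these genes had few counts, so their patterns are uncertain. *Gm8206* had 18, 13, 12 and 9 counts, *Gm15890* had 30, 23, 13 and 19, and *Rnd3* had 11, 0, 5 and 21. *Ifng*, the type 1 cytokine, had 16.3, 8.90, 2.13 and 5.91 CPM, the same order of libraries as *Ccr2*. *Iqce* had 53.0, 49.2, 25.7 and 26.1 CPM, close to *Ccr6* in each library.

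Other analyses changed the number of calls among the receptors, and the direction of *Cx3cr1* alone. DESeq2 called 5 of the 8 receptors lower at the unadjusted limit, where it called 2.45% of all tested genes. Without a filter on low counts, edgeR called 5 of the 9 receptors lower after adjustment (*Ccr2* adjusted p = 2.8e-05, *Ccr4* 7.0e-06, *Cxcr3* 0.0039, *Ccr8* 0.0129 and *Ccr6* 0.0232), where it called 0.425% of 22368 genes lower. The SE of *Ccr2* and *Ccr4* fell from 0.58 and 0.50 to 0.32 each, while that of *Ccr6* and *Ccr8* rose from 0.17 and 0.15 to 0.26 and 0.22. Fold changes hardly moved, so these adjusted p-values depended on how the spread between 2 libraries a genotype was estimated. Left out in turn, WT 1 reduced the calls from 5 to 2 and TfR1-deficient 1 reduced them to 3.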

How the data were processed

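The deposited table holds whole-number read counts per Ensembl gene for 2 WT and 2 TfR1 cko libraries, made by the authors and not normalized. The submitters' processing notes name Trim Galore 0.6.7, STAR 2.7.9a, featureCounts and mm10, while the study's methods name mm9. Annotation release, strand and treatment of multi-mapping reads are not given in the sources used here. Of 47729 rows, 32799 had a symbol, and 0 columns were left out. Counts passing filterByExpr were TMM-scaled and tested with edgeR 4.0.16 (quasi-likelihood, genotype only, R 4.3.3) with Benjamini-Hochberg adjustment; SE was taken as the size of the log2 change over the root of F, and log2 CPM used a prior count of 2. DESeq2 1.42.0 was an alternative. Scripts were tested on simulated data. Replicates differed beyond counting noise (chi-square per degree of freedom 29.3 in WT, 45.7 in TfR1-deficient). Exon lengths came from GENCODE vM1, positions and promoters from RefSeq GRCm38.p6.

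The members, gene lists and motifs were chosen with earlier results of these data known. Named were all 9 receptors, *Tfrc*, *Foxp3*, *Csf1r*, per list the 2 most highly counted genes and up to 3 called in each direction by fold change, and the gene nearest to each receptor. *Ctla4*, *Fyco1*, *Rgs14* and other genes outside this rule were chosen after their values were seen. Some genes that meet the rule are not reported here.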

Additional observations from a re-analysis of the deposited data

How the results depend on the processing

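Of all 12536 genes, 311 were called lower and 200 higher at the unadjusted limit. With the replicate number as a block these became 141 and 70, and leaving out 1 library in turn gave 140 to 372 and 151 to 268. Without a count filter 650 were called higher. After adjustment 0 were called in either direction in the main analysis; DESeq2 called 33 lower and 6 higher, and edgeR without a count filter 95 lower and 167 higher. Of the receptors, 5 were called lower at the unadjusted limit, 2 to 6 with 1 library left out (2 without WT 1, 3 without TfR1-deficient 1); after adjustment 0 were called in the main analysis, 2 by DESeq2 and 5 without a count filter. The block changed no call of the 9 receptors. Deviations from the genotype means correlated at -0.61 between libraries of 1 number. With 2 libraries a genotype, that value cannot show whether libraries of 1 number were prepared together. Crossing the replicate numbers was an alternative added once the data had been seen. It paired WT 1 with TfR1-deficient 2 and WT 2 with TfR1-deficient 1, the macrophage-high and macrophage-low pairs found in these same counts. No label gives this pairing, so its calls add no evidence. It gave 519 genes lower and 596 higher at the unadjusted limit, 210 and 150 after adjustment, and 6 receptors lower after adjustment. Scaling to the 7 Treg cell markers, also chosen afterwards, gave 62 genes lower and 1586 higher, 3 receptors lower (*Ccr8* at -0.48 and *Cxcr3* at -0.56 were no longer called) and 1 higher (*Ccr9*). *Cx3cr1* ran from -0.37 without TfR1-deficient 2 to 3.73 without WT 1, and had too few counts for the filter of at least 10 in every library. With the block, *Rgs1*, *Rgs3*, *Rgs14*, *Cd44* and *Irf4* were no longer called. The causes were not tested. The median of the receptors ran from -1.20 to -0.52 over all these fits. With 2 libraries a genotype, replicate number limits the tests, and *Ccr10*, with at most 4 counts in a library, could not be compared at this depth.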
